A study of Mus musculus with 3 samples.

Results

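In a culture of mouse testis cells grown under conditions for Leydig differentiation, a set of 181 day 7 cells was selected for a high share of transcripts from Grem1, Crabp1, Aldh1a3 and Hmga2. These 181 were chosen among the 1742 day 7 cells that had at least 1500 unique molecular identifiers (UMIs, each counted as 1 captured transcript), of 2171 day 7 cells and 6124 cells in the 3 libraries. Cells were ranked by the summed UMIs of the 4 genes over all UMIs of the cell, and the highest 15% (261 cells) were taken. Of these, 80 were left out because they were also in the highest 25% of cells for the summed UMIs of Mgll, Anxa8, Ltbp2, Tnc, Sema7a and Nupr1. The comparison cells were the 871 cells of the lower 50% of the first ranking, called low-ranked cells here, from which no such cells were left out. The selection used measured levels of these 10 genes, so their values are given as a description of the selection and support nothing.

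Sca1+/cKit- cells were sorted from the testes of adult C57BL/6 mice aged 8 to 12 weeks and plated at 100000 cells per well on Matrigel. All groups recovered for 18 h in 10% FBS and were expanded for 3 days in medium with PdgfAA, PdgfBB and Fgf2 at 10 ng/ml each and 0.5 uM SAG. By the study's account differentiation medium, with the same factors plus 5 mM LiCl2 and 10 uM DAPT, followed from then on, so that day 4 cells were collected at the change of medium, day 7 cells 3 days after it and day 14 cells 10 days after it. Drop-seq, which captures single cells with barcoded beads in droplets, gave 1 library each for days 4, 7 and 14 of culture. Each day is therefore 1 sample, cells of 1 library are not replicates, no test between groups was possible, and every interval here is at 95% and covers counting error only.

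Grem1 encodes gremlin 1, a secreted protein that binds bone morphogenetic proteins (BMPs) and keeps them from their receptors. Aldh1a3 encodes a retinaldehyde dehydrogenase that makes retinoic acid, and Crabp1 encodes a cytosolic protein that binds retinoic acid. Hmga2 encodes a chromatin protein with AT-hooks that is abundant in embryonic tissue, is found in undifferentiated mesenchyme and is repressed by let-7 microRNAs. On the GRCm38 build in the GENCODE M21 annotation, the protein-coding gene Grem1 lies at chr2:113746164-113758646 on the minus strand and Aldh1a3 at chr7:66390890-66427517 on the minus strand. Crabp1 lies at chr9:54764748-54773110 on the plus strand and Hmga2 at chr10:120361275-120476469 on the minus strand.

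The libraries of days 4, 7 and 14 held 12677110, 11627440 and 5324400 UMIs and shared no cell barcode (0 between any pair of days). The 181 chosen cells held 1024094 UMIs in all, with a median of 3841 per cell and a range of 1513 to 24354. The 871 low-ranked cells held 4731013 UMIs, with a median of 3455 per cell. Median mitochondrial shares were close, at 1.28% of UMIs in chosen and 1.43% in low-ranked cells. Selection leaned towards shallow cells only slightly. With the 1742 cells put into 5 bins of depth, chosen cells made up 12.3% of the shallowest bin (1501 to 2226 UMIs) and 9.17% of the deepest (9932 to 52660 UMIs). The low-ranked cells leaned further that way, since they made up 63.0% of the shallowest and 38.4% of the deepest bin.

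A chosen cell carried few UMIs of the 4 genes. The count ran from 2 to 45 with a median of 5, or a median of 11.9 per 10000 UMIs, and 60 chosen cells (33.1%) had only 2 or 3. At the edge of the selection, the last chosen cell had 10 such UMIs among 12821 (7.80 per 10000), and the first cell below it had 2 among 2571 (7.78 per 10000). Of the 871 low-ranked cells, 804 had none.

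Most chosen cells were chosen on 1 gene or on a pair. UMIs of only 1 of the 4 genes were seen in 85 chosen cells (47.0%), of 2 genes in 60, of 3 in 33 and of all 4 in 3. Aldh1a3 had the most UMIs of the 4 in 66 chosen cells, Grem1 in 47, Crabp1 in 43 and Hmga2 in 14, and 11 cells had a tie. The UMIs of each gene were also uneven between carriers: the 8 chosen cells with the most Grem1 held 33.4% of its 332 UMIs in the set, and the 7 with the most Crabp1 held 41.7% of its 446.

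**Figure D1:**
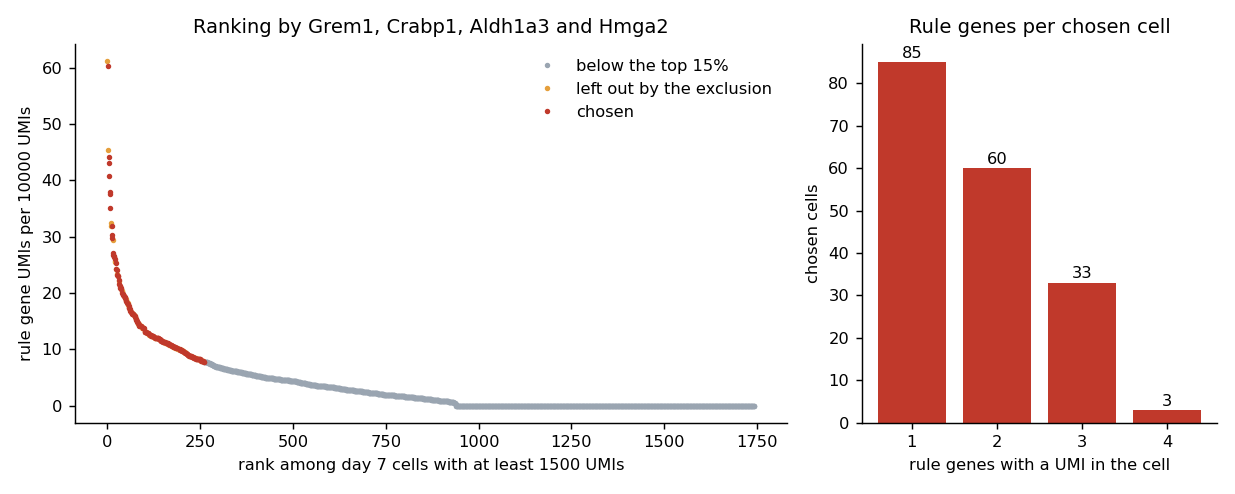
Left, UMIs of the 4 rule genes per 10000 UMIs (y axis) of the 1742 day 7 cells in rank order (x axis), with the 181 chosen cells in red, the 80 cells left out by the exclusion in orange and all others in grey. Right, number of chosen cells (y axis) by how many of the 4 genes had a UMI (x axis). The ranking falls without a step at the 15% limit, and 85 of the 181 cells carried UMIs of 1 rule gene.

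The label of these cells joins 4 genes, and whether the genes shared cells was measured by leaving each one out of the ranking in turn and repeating the same steps with the other 3. Hmga2, Grem1 and Crabp1 were then higher in the chosen cells, and Aldh1a3 was lower. Hmga2 stood at 76.9 CPM (UMIs of the gene per 1000000 UMIs summed over a group of cells) in 180 cells chosen by the other 3 genes against 32.8 CPM in 871 low-ranked cells, 2.35-fold (interval 1.75 to 3.12). Grem1 stood at 78.3 against 43.0 CPM, 1.82-fold (1.38 to 2.38), and Crabp1 at 56.3 against 40.1 CPM, 1.40-fold (1.01 to 1.91). Aldh1a3 stood at 133 against 178 CPM, a ratio of 0.748 (0.629 to 0.886). When Aldh1a3 was left out, 1257 of the 1742 cells had no UMI of the other 3 genes, so its 871 low-ranked cells were an arbitrary part of tied cells, as they were, to a small degree, for Hmga2 (889 tied cells).

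These ratios were not seen at equal depth. With every cell thinned to 1500 UMIs before the ranking, the ratio was 1.31 for Hmga2 (0.609 to 2.59), 0.719 for Grem1 (0.345 to 1.36), 0.687 for Crabp1 (0.342 to 1.26) and 1.06 for Aldh1a3 (0.774 to 1.44). All 4 intervals then held 1, on 11 Hmga2, 11 Grem1, 12 Crabp1 and 54 Aldh1a3 UMIs in the chosen cells, so a joint presence was not detectable at that depth. All 4 thinned rankings left 1271 to 1496 cells tied at 0. In the ranking without Aldh1a3 (1496 cells) the highest 15% (261 cells) took in cells without a UMI of the other 3 genes. With all 4 genes, 528 thinned cells had a UMI and the limit fell at 1 UMI. The chosen cells were thus in part an arbitrary pick among tied cells. These thinned ratios therefore cannot show whether the genes shared cells. With the exclusion also made in the low-ranked cells, Aldh1a3 stood at 0.945 (0.786 to 1.13), and Crabp1 at 1.12 (0.812 to 1.54).

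**Figure D2:**
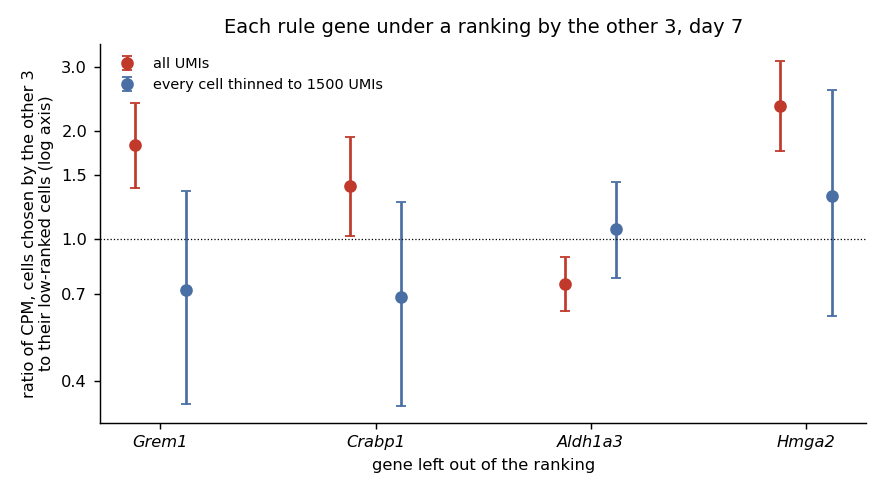
Ratio of CPM (y axis, log scale) of each rule gene between day 7 cells chosen by the other 3 genes and their low-ranked cells, at full depth (red) and with every cell thinned to 1500 UMIs (blue), with exact 95% counting intervals. At full depth Grem1, Crabp1 and Hmga2 lie above 1 and Aldh1a3 lies below, and at 1500 UMIs all 4 intervals include 1.

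Counts of cells with a UMI of both genes of a pair gave the same order. Over the 1742 cells, 65 had a UMI of both Grem1 and Hmga2, where the product of the 2 shares within the 5 depth bins gives 34.1 (1.91 times as many). Crabp1 and Hmga2 were together in 45 cells where the product gives 27.7 (1.62 times), and Grem1 and Crabp1 in 34 where it gives 23.0 (1.48 times). The 3 pairs with Aldh1a3 were at 1.04 to 1.12 times the product. The 4 genes therefore did not go together in 1 group of cells, and Aldh1a3, seen in 682 of the 1742 cells, was found with the other 3 little more often than its depth-matched share gives. The cells are accordingly called by the rule that chose them and receive no cell type name.

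The place of the chosen cells among all day 7 cells was described with the 10 genes of the rule left out. In 20 principal components of the other variable genes, chosen cells made up a mean of 19.3% of the 30 nearest neighbours of a chosen cell and 7.72% of those of a low-ranked cell, against 10.4% of all cells. Single chosen cells ranged from 0% to 56.7%. With all cells at 1500 UMIs the means were 16.2% and 8.81%. Chosen cells were thus more frequent around chosen than around low-ranked cells, but most neighbours of a chosen cell were not chosen. The exclusion may have made part of this gap. None of the 435 cells highest in the genes used for it could be chosen, while 172 of the 871 low-ranked cells were among them. For cells outside these 435, the 10.4% over all cells is too low a baseline. Neighbours were not counted without the exclusion, so its part in the gap, and in the cluster shares below, was not tested.

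Chosen cells were found in 6 of 7 clusters of that neighbour graph. They made up 22.7% of cluster 2 (70 of 309 cells, exact interval 18.1 to 27.7%), a shallow cluster with a median of 2309 UMIs per cell. Its leading genes included Lyz2, Acta1, Sfrp2 and Cxcl12, and it held 38.7% of all chosen cells. Chosen cells made up 20.3% of cluster 7 (36 of 177, 14.7 to 27.0%), whose leading genes Ccne2, Rrm2, Clspn, Gmnn and Uhrf1 serve DNA replication or its control. They made up 11.1% of cluster 1, led by genes with Cnn1 and Acta2 among them, and 10.2% of cluster 5, led by mitosis genes such as Cenpa, Cdc20 and Ube2c. Clusters 6 and 4 held fewer, at 5.85% and 2.76%. None of the 286 cells of cluster 3, led by Cyp11a1, Adh1 and Smoc2, was chosen, which allows a share of up to 1.05%.

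Cluster 3 had 7.08 CPM of Grem1, 9.66 of Crabp1, 34.8 of Aldh1a3 and 3.22 of Hmga2, against 144, 128, 246 and 79.9 CPM in cluster 2. Of its 286 cells, 241 were low-ranked, so that they formed 27.7% of the comparison cells. Some results below are therefore also given against the 630 low-ranked cells outside cluster 3, a comparison chosen after the data were seen.

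**Figure D3:**
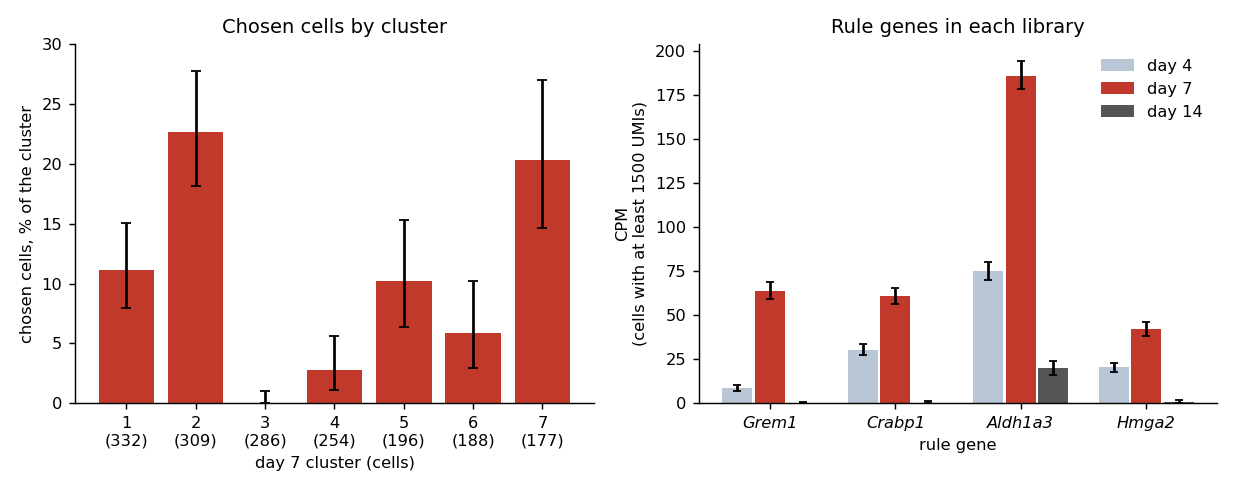
Left, chosen cells as a percentage of each day 7 cluster (y axis), with the cluster number and its cell count on the x axis. Right, CPM of the 4 rule genes over all cells with at least 1500 UMIs (y axis) in the libraries of days 4, 7 and 14. Bars carry exact 95% counting intervals, or for a count of 0 the limit that 3 counts give. Clusters 2 and 7 hold the largest shares of chosen cells and cluster 3 none, and each rule gene has its highest level on day 7.

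Among genes outside the rule, 6610 had at least 20 CPM in either group and at least 50 UMIs over both. Of these, 463 (7%) were at least 1.5-fold higher in the chosen cells and 533 (8.06%) at least 1.5-fold lower, on a ratio with 1 CPM added to each group, and the median log2 ratio was 0.04. With 1 library these counts hold no error between samples. When the exclusion was made in both groups, the counts were 427 higher and 568 lower, of which 373 and 479 were genes counted before. When the low-ranked cells of cluster 3 were dropped, they were 304 higher and 402 lower, with 270 and 347 counted before.

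The 15 genes with the highest ratios are described singly, since they were picked for their ratios. Sfrp2, which encodes a secreted modulator of Wnt signalling, led at 75.2 CPM in chosen cells (59.3 to 94.0) against 14.6 CPM in low-ranked cells (11.3 to 18.5), 5.16-fold higher (3.68 to 7.24). Its 77 UMIs came from 20 of the 181 chosen cells, and 1 cell held 22.1% of them. Alcam, an adhesion molecule of the immunoglobulin family, followed at 74.2 against 16.1 CPM, 4.62-fold (3.32 to 6.43), with UMIs in 36 chosen cells. Adam12, a membrane metalloprotease, stood at 71.3 against 18.2 CPM, 3.92-fold (2.83 to 5.42), and was the most evenly spread of the 3, with UMIs in 51 chosen cells and at most 4 in any.

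The next genes had ratios between 2.15 and 3.10. Col5a3, a collagen V chain, stood at 85.9 against 27.7 CPM (3.10-fold, 2.34 to 4.10), and Thy1, a surface glycoprotein of mesenchymal cells, at 50.8 against 22.0 CPM (2.31-fold, 1.62 to 3.25). Pvrl3, which encodes the adhesion protein nectin 3, stood at 218 against 101 CPM (2.16-fold, 1.83 to 2.53), and Steap1, a membrane protein of the metalloreductase family, at 58.6 against 24.3 CPM (2.41-fold). The kinase gene Pak1 stood at 76.2 against 25.8 CPM (2.95-fold, 2.19 to 3.96) and Tes, which encodes the focal adhesion protein testin, at 113 against 44.6 CPM (2.54-fold, 2.01 to 3.20). Ehbp1l1 and Rnf150 were each 2.15-fold higher. With cells thinned to 1500 UMIs and chosen anew, the log2 ratio of Sfrp2 was 1.2 in place of 2.29, that of Alcam 1.12 in place of 2.14, that of Col5a3 0.64 in place of 1.60 and that of Pak1 0.62 in place of 1.53, and all 4 were still past 1.5-fold.

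The remaining 4 of the 15 were Plk1, a mitotic kinase (58.6 against 18.8 CPM, 3.11-fold, 2.21 to 4.37), Ccna2, cyclin A2 (2.21-fold), Anln, which encodes the cytokinesis protein anillin (2.20-fold), and Rrm2, a subunit of ribonucleotide reductase (2.15-fold). Without the 25% of day 7 cells highest in mitosis and DNA replication genes, Plk1 was lower in the chosen cells (log2 ratio -0.91) and Ccna2 stood at -0.35, inside 1.5-fold. Rrm2, Anln (log2 ratio 1.66) and the 11 other genes remained past 1.5-fold higher there.

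**Figure D4:**
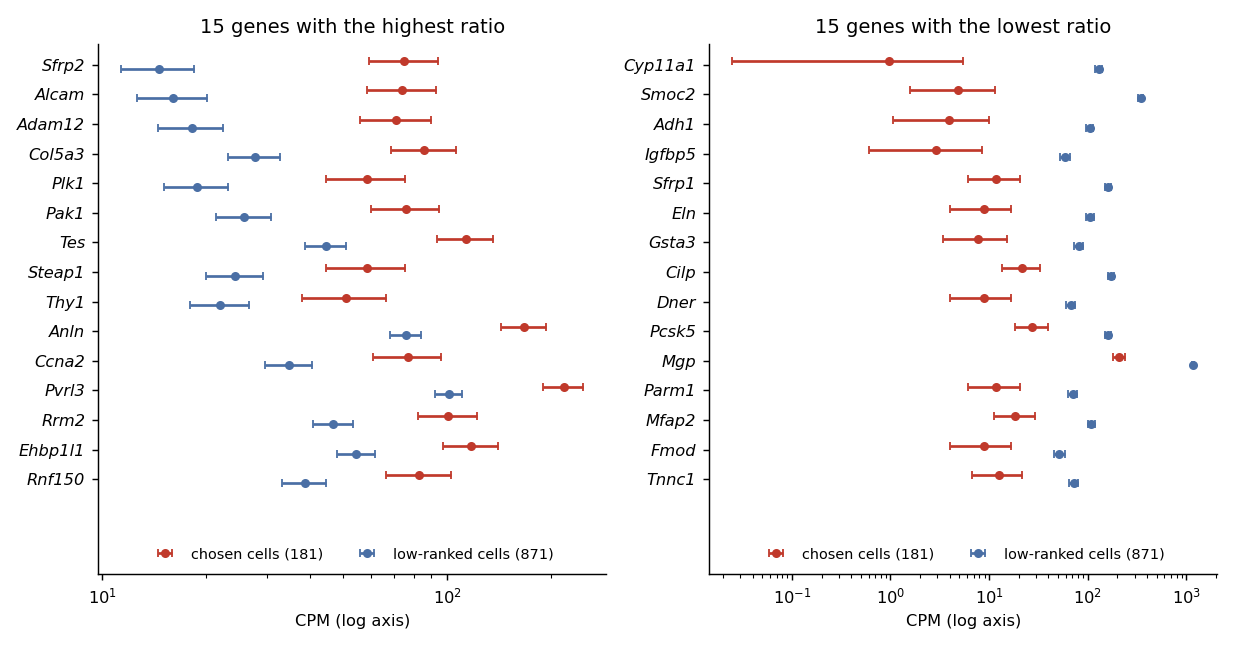
CPM (x axis, log scale) in the 181 chosen cells (red) and the 871 low-ranked cells (blue) of day 7, for the 15 genes with the highest (left) and the 15 with the lowest ratio (right) among genes with at least 50 CPM in either group, with exact 95% Poisson intervals. The 30 genes were picked for their ratios between these same cells, so the gaps between the groups are a description and support nothing.

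The 15 genes with the lowest ratios were picked in the same way. Cyp11a1, the enzyme that starts steroid synthesis from cholesterol, had 1 UMI in the chosen cells and 612 in the low-ranked cells, 132-fold lower (interval 23.7 to 5241). These 612 UMIs came from only 34 of the 871 low-ranked cells (3.90%), and 1 cell held 11.3% of them. Adh1, an alcohol dehydrogenase, stood at 3.91 against 105 CPM (26.8-fold lower, 10.4 to 98.9), and Gsta3, a glutathione transferase, at 7.81 against 81.2 CPM (10.4-fold lower, 5.22 to 24.2). These enzymes are known from Leydig cells, among other tissues. Of the secreted factors, Smoc2 stood at 4.88 against 344 CPM (70.5-fold lower, 30.1 to 217), Sfrp1, a Wnt modulator of the same family as Sfrp2, at 11.7 against 161 CPM (13.7-fold lower, 7.80 to 26.7), and Igfbp5, which binds insulin-like growth factors, at 2.93 against 59.2 CPM (20.2-fold lower, 6.84 to 98.6). Sfrp1 and Sfrp2 thus lay at opposite ends of the ratios. Of the 871 low-ranked cells, 76 had a UMI of Adh1, 53 of Igfbp5, 201 of Gsta3, 221 of Sfrp1 and 224 of Smoc2.

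Several of the other genes encode proteins of the extracellular matrix. Elastin (Eln) stood at 8.79 against 106 CPM (12.1-fold lower, 6.32 to 26.6), and Mfap2, a protein of elastin microfibrils, at 18.6 against 109 CPM (5.89-fold lower, 3.73 to 9.86). Mgp, which encodes the calcification inhibitor matrix Gla protein, stood at 207 against 1179 CPM (5.69-fold lower, 4.96 to 6.56), Cilp at 21.5 against 172 CPM (8.00-fold lower, 5.25 to 12.8) and Fmod, fibromodulin, at 8.79 against 51.6 CPM (5.87-fold lower). Dner, Pcsk5, Parm1 and Tnnc1 were 5.69-fold to 7.65-fold lower. After thinning, Eln stood at a log2 ratio of -1.59 in place of -3.45, Smoc2 at -3.46 in place of -5.87 and Mgp at -1.03 in place of -2.50, and without the exclusion Mgp stood at -1.19.

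Part of these differences lay in cluster 3. Against the 630 low-ranked cells outside it, Cyp11a1 was 5.66-fold lower in place of 132-fold, Adh1 1.64-fold in place of 26.8-fold and Sfrp1 4.25-fold in place of 13.7-fold. All 15 lowest and all 15 highest genes kept their direction past 1.5-fold in that comparison, whose cells were among those used to pick them. Smoc2 (17.8-fold lower), Gsta3 (9.46-fold), Igfbp5 (6.36-fold) and Eln (4.77-fold) remained far lower, and Sfrp2 was 5.50-fold higher.

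Inside single clusters the picture was less even. In clusters 1, 5 and 7, which held 37, 20 and 36 chosen cells, 12, 13 and 15 of the 15 lowest genes were at least 1.5-fold lower in chosen than in low-ranked cells of the same cluster, and 12, 10 and 10 of the 15 highest were at least 1.5-fold higher. In cluster 2, with 70 chosen and 138 low-ranked cells, 12 of the 15 highest were again higher, but only 5 of the 15 lowest were lower and 4 were higher. Counts there were small, for example 4 against 10 UMIs of Sfrp1 and 3 against 8 of Eln. Sfrp2, a leading gene of cluster 2, had 17 against 19 UMIs there (log2 ratio 0.59), beside log2 ratios of 1.28 to 3.97 in clusters 1, 5 and 7. In cluster 1, 0 against 2 UMIs placed Igfbp5, and also Plk1 of the 15 highest, past 1.5-fold lower. The genes had been picked for their ratios between these same chosen and low-ranked cells, so their direction inside clusters is no independent result. No share over all genes inside a cluster is given here for comparison. The clusters had also been formed from these genes among others, so these counts are a description and support nothing.

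Cell cycle genes were higher as a group against all 871 low-ranked cells. Of 20 mitosis genes, all of which passed the filter on low levels, 17 were at least 1.5-fold higher and 0 lower (median log2 ratio 0.79), against 7% higher over all genes. Prc1, a spindle midzone protein, stood at 236 against 113 CPM (2.09-fold, 1.79 to 2.44), Top2a at 213 against 112 CPM (1.90-fold, 1.62 to 2.23) and Mki67 at 173 against 91.7 CPM (1.88-fold, 1.57 to 2.25). Of 15 DNA replication genes, 11 were higher and 0 lower (median 0.64), with Pcna, the polymerase clamp, at 277 against 181 CPM (1.53-fold, 1.33 to 1.75) and Mcm6 at 65.4 against 33.2 CPM (1.97-fold, 1.46 to 2.64).

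Low-ranked cells had not been cleared of cells rich in the 6 exclusion genes, and with the exclusion in both groups the counts were 9 of 20 mitosis genes (median 0.56) and 6 of 15 replication genes (median 0.53). Without the 25% of cells highest in these genes, the mitosis median was -0.12, after a removal made by these same genes. The replication median was at least 0.47 in all 20 other settings, this removal among them. Cluster 3, which formed 27.7% of the comparison cells, had only 11.6 CPM of Mki67 and 9.66 of Top2a. Against low-ranked cells outside it, Plk1 was 2.29-fold, Rrm2 1.72-fold, Ccna2 1.64-fold and Anln 1.63-fold higher. List counts for that comparison are not given here. D-type cyclins and inhibitors of cyclin-dependent kinases showed little: of 9 genes, 0 were higher and 1 lower, namely Cdkn1a, which encodes p21, at 324 against 522 CPM (ratio 0.621, 0.552 to 0.697), and with the exclusion in both groups it too was inside 1.5-fold. Ccnd2 was level at 880 against 884 CPM.

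The BMP pathway, in which Grem1 acts, was covered in part. List counts here and below stand beside 7% higher and 8.06% lower over all 6610 genes. None of the BMP ligand genes passed the filter. Of 7 genes for receptors and signal transducers, 0 were higher and 2 lower, Bmpr1a (52.7 against 80.5 CPM, ratio 0.655, 0.483 to 0.872) and Smad5 (20.5 against 34.2 CPM). Of 8 other antagonists, 0 were higher and 2 lower, Bmper (48.8 against 100 CPM, ratio 0.487, 0.357 to 0.653) and Twsg1 (20.5 against 41.0 CPM), while the most abundant, Fstl1, stood at 2062 against 2419 CPM. Of the 3 BMP target genes that passed, Id1 (82.0 against 43.5 CPM, 1.88-fold, 1.44 to 2.44) and Id2 (28.3 against 14.2 CPM, interval of the ratio 1.25 to 3.13) were higher, and Id3 stood at 62.5 against 42.3 CPM (1.48-fold, 1.10 to 1.97). The median log2 ratio of these 3 was 0.90, and 0.18 in a ranking without Grem1. Id2 passed the filter only through the chosen cells and so could not count as lower.

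Within the chosen cells, Id1 stood at 97.6 CPM in the 47 cells led by Grem1, 78.0 in the 43 led by Crabp1 and 81.6 in the 66 led by Aldh1a3, and at 24.1 in the 14 led by Hmga2. These levels rest on 27, 21, 30 and 2 Id1 UMIs, and their intervals overlap. On day 4, Id1 stood at 64.5 CPM in cells chosen by the same rule and 61.4 in their comparison cells.

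Retinoid genes differed in both directions, beside 7% higher and 8.06% lower over all genes. Of 6 genes for synthesis, binding and breakdown, 2 were higher and 2 lower. Aldh1a1, like Aldh1a3 a retinaldehyde dehydrogenase, was 690 CPM in low-ranked cells and 145 CPM in chosen cells (ratio 0.211, 0.178 to 0.248), and remained lower against low-ranked cells outside cluster 3, at 442 CPM. Aldh1a2, the third enzyme of this kind, stood at 74.2 against 47.8 CPM (1.55-fold, 1.18 to 2.02), and Fabp5, which can carry retinoic acid to the nucleus, at 174 against 114 CPM (1.53-fold, 1.28 to 1.81). Outside cluster 3 Fabp5 was 1.46-fold higher and so inside the limit, and with the exclusion in both groups only 1 of the 6 genes was higher. Of 4 receptor and target genes, 0 were higher and 2 lower, Tgm2 (41.0 against 73.3 CPM) and Rarres2 (7.81 against 24.5 CPM). Rarres2 passed the filter only through the low-ranked cells and so could not count as higher.

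The retinoid genes differed between chosen cells led by different rule genes. Aldh1a2 stood at 120 CPM in Aldh1a3-led cells, 89.1 in Crabp1-led cells and 21.7 in Grem1-led cells, on 44, 24 and 6 UMIs. Aldh1a1 was at 161, 241 and 72.3 CPM in the same order. The 14 Hmga2-led cells had no UMI of Aldh1a2 and 1 of Aldh1a1, so both enzymes were lower in Grem1-led and Hmga2-led cells than in the others. Sfrp2 stood at 130 CPM in Grem1-led cells (91.1 to 180) and 70.6 in Crabp1-led cells (42.5 to 110), with overlapping intervals, at 57.1 in Aldh1a3-led cells and at 12.1 (1 UMI) in Hmga2-led cells. Plk1 had no UMI in the 47 Grem1-led cells, 17 in Crabp1-led, 27 in Aldh1a3-led and 16 in Hmga2-led cells. Mitosis genes summed to 0.0762% of UMIs in Grem1-led, 0.177% in Crabp1-led, 0.254% in Aldh1a3-led and 0.558% in Hmga2-led cells. In CPM they summed to 2080 over all chosen cells and 1143 over low-ranked cells. Grem1-led cells thus lay below the low-ranked cells in mitosis genes, and the higher level came from the other chosen cells.

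Of 3 let-7 targets and oncofetal genes that passed, 2 were higher and 1 lower, but each reached 20 CPM in a single group. The filter thus fixed the direction of all 3, and these counts support nothing. Hmga1, the paralogue of Hmga2, stood at 27.3 against 8.45 CPM (3.23-fold, 1.92 to 5.37), and Igf2bp2, an RNA-binding protein, at 26.4 against 9.30 CPM (2.83-fold, 1.69 to 4.68). These rest on 28 and 27 UMIs in chosen cells, and the median log2 ratio of the 3 genes was 1.41, and -0.28 when every cell was thinned. The imprinted transcription factor gene Plagl1 was lower at 15.6 against 40.8 CPM (ratio 0.383, 0.215 to 0.638).

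Matrix lists were lower in parts, beside 7% higher and 8.06% lower over all genes. Counts of 1 or 2 genes in a list are description only. Of 13 elastic fibre genes, 1 was higher (Ltbp1, 152 against 98.5 CPM) and 6 lower: beside Eln and Mfap2 these were Mfap4, Fbln5, Efemp1 and Ltbp3. The abundant crosslinking enzyme Lox stood at 1695 against 1554 CPM. Of 4 small leucine-rich proteoglycans 3 were lower, with Dcn, decorin, at 235 against 484 CPM (0.487, 0.424 to 0.556) beside Prelp and Fmod. Of 15 fibrillar collagens and glycoproteins 2 were higher, Col5a3 and Col6a3 (343 against 201 CPM, 1.71-fold), and 2 lower, Col3a1 (2600 against 4597 CPM, 0.566) and Thbs2. Among 10 basement membrane genes, 0 were higher and 2 lower, Col4a1 (1157 against 1807 CPM) and Col4a5, and among 13 matrix proteases and inhibitors, 0 were higher and 5 lower, such as Adamts5 (78.1 against 226 CPM, 0.346) and Timp3 (568 against 1049 CPM, 0.542).

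Actin and contractile genes, which were abundant throughout, differed little: 0 of 17 were 1.5-fold higher and 2 lower (Cnn1 and Myh11), with Acta2 at 3179 against 2621 CPM (1.21-fold, 1.17 to 1.26). Of 4 chondrocyte, osteoblast and adipocyte genes 3 were lower, led by Spp1, osteopontin, at 4103 against 7419 CPM (0.553, 0.535 to 0.571).

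**Figure D5:**
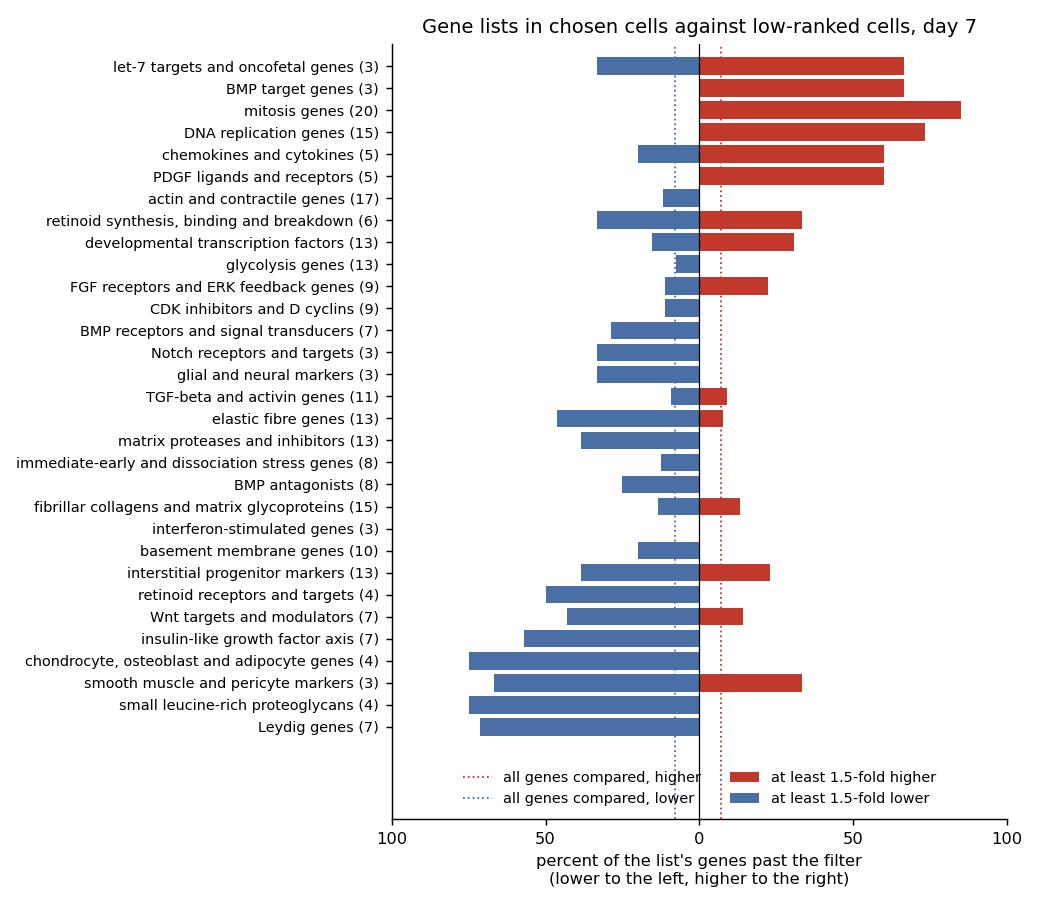
Share of each list's genes that were at least 1.5-fold higher (red, to the right) or lower (blue, to the left) in chosen than in low-ranked day 7 cells, among genes that passed the filter on low levels (their number in brackets), for lists with at least 3 such genes. Dotted lines mark 7% higher and 8.06% lower over all 6610 genes. Mitosis and DNA replication genes reach furthest to the right among the longer lists, and Leydig genes, small leucine-rich proteoglycans and chondrocyte, osteoblast and adipocyte genes furthest to the left.

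Signalling lists showed small groups of genes, beside 7% higher and 8.06% lower over all genes. Counts of 1 or 2 genes in a list are again description only. Of 5 PDGF ligands and receptors 3 were higher, Pdgfa (259 against 170 CPM, 1.52-fold, 1.32 to 1.75), Pdgfrb (52.7 against 31.5 CPM, 1.67-fold, and 1.39-fold outside cluster 3) and Pdgfrl (30.3 against 19.7 CPM, 1.54-fold, 0.991 to 2.33). Pdgfra, the receptor of PDGF-AA, stood at 62.5 against 86.9 CPM (0.719, 0.544 to 0.938). Of 7 genes of the insulin-like growth factor axis 0 were higher and 4 lower, all of them binding protein genes, with Igfbp7 at 5075 against 7918 CPM (0.641, 0.622 to 0.660) beside Igfbp4, Igfbp5 and Igfbp6. Of 7 Wnt targets and modulators 1 was higher, Sfrp2, and 3 lower, Sfrp1, Wisp2 and Frzb.

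Ptch1, a receptor and target of the hedgehog pathway that SAG activates, stood at 6.84 against 33.0 CPM (0.207, 0.0820 to 0.437), and it was 1 of 2 hedgehog genes that passed. It passed only through the low-ranked cells and so could not count as higher. Of 9 FGF receptor and ERK feedback genes 2 were higher, Dusp6 and Fosl1, and 1 lower, Spry1. In the TGF-beta list 1 of 11 was higher, Inhba (936 against 595 CPM, 1.57-fold, 1.46 to 1.69), and 1 lower, Tgfb1. Both counts were near the shares over all genes (7% and 8.06%). Notch genes had 0 higher and 1 lower of 3 (Heyl). Of 5 chemokines and cytokines 3 were higher, Csf1, Cxcl12 (445 against 250 CPM, 1.78-fold, 1.59 to 1.98) and Ccl2, and Cxcl14 was lower (852 against 1788 CPM, 0.477, 0.444 to 0.511).

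Among 13 developmental transcription factor genes, 4 were higher and 2 lower, beside 7% and 8.06% over all genes. Runx1 stood at 109 against 53.1 CPM (2.06-fold, 1.63 to 2.59), Osr1 at 93.7 against 56.0 CPM (1.67-fold, 1.31 to 2.12), Snai1 at 51.8 against 31.5 CPM (1.64-fold, 1.18 to 2.26) and Twist2 at 22.5 against 7.61 CPM (2.95-fold, 1.67 to 5.12). Outside cluster 3 Snai1 was 1.45-fold higher. Twist2 passed the filter only through the chosen cells and so could not count as lower. Hoxd9 and Hoxd10 were lower. Prrx1, the most abundant, stood at 131 against 97.7 CPM (1.34-fold).

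Markers of the sorted progenitors were split. Of 13 that passed, 3 were higher (Thy1, Nes and Pdgfrb) and 5 lower. Nes, an intermediate filament gene, stood at 82.0 against 41.0 CPM, and outside cluster 3 it was 1.49-fold higher. Ly6a, which encodes the Sca1 antigen used for the sort, stood at 26.4 against 97.0 CPM (0.272, 0.177 to 0.401), and Tcf21, a transcription factor gene of the testis mesenchyme, at 8.79 against 30.4 CPM (0.289, 0.129 to 0.564), on 9 UMIs in the chosen cells. Vcam1 (98.6 against 223 CPM) and Eng were also lower. Tcf21 passed the filter only through the low-ranked cells and so could not count as higher.

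Of 16 Leydig genes 7 passed the filter, of which 0 were higher and 5 lower (median log2 ratio -1.26, also with genes without a UMI set at their bound). Beside Cyp11a1 these were Fdx1 and Scarb1 and the 2 genes without a UMI in the chosen cells, Hsd3b1 (at least 16.6-fold lower) and Ptgds (at least 9.38-fold lower), against a limit of 3 UMIs over the chosen group. Cyp11a1, Hsd3b1 and Ptgds passed only through the low-ranked cells and so could only count as lower. Star, which brings cholesterol into mitochondria, stood at 253 against 360 CPM (0.702, 0.613 to 0.800), and Nr5a1 at 22.5 against 25.2 CPM. Outside cluster 3 the median of the 7 genes that passed was -0.48, inside 1.5-fold.

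Other cell types were looked for by their markers. Macrophage markers summed to 7.81 CPM in chosen and 36.8 CPM in low-ranked cells, with 8 of 12 at 0 in the chosen cells, C1qa, C1qb, Adgre1 and Ptprc among them. Epithelial and mesothelial markers summed to 5.86 and 8.67 CPM, with Epcam, Krt8, Krt18 and Krt19 at 0. Germ cell markers summed to 50.8 and 56.6 CPM, with Ddx4 and Dazl at 0 in the chosen cells. Endothelial markers summed to 116 and 123 CPM, nearly all of it Cdh5 (104 against 108 CPM), with Kdr, Tie1, Vwf, Emcn and Esam at 0. Sertoli markers summed to 990 and 1375 CPM through Ctsl (940 against 1322 CPM), with Amh and Dhh at 0.

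Of smooth muscle and pericyte markers, Cspg4 was higher (161 against 91.7 CPM, 1.76-fold, 1.46 to 2.11), while Myh11 (1 UMI) and Cnn1 were lower and Rgs5 and Notch3 were at 0. Glial and neural markers summed to 763 and 838 CPM, mostly Ncam1 (618 against 639 CPM), with Mbp at 0. Interferon-stimulated genes had 0 of 3 past 1.5-fold. Of glycolysis genes 0 of 13 were higher and 1 lower (Hk2), and of immediate-early and stress genes 0 of 8 were higher and 1 lower (Ier3). Doublets could not be separated: Scrublet called 2 of the 2171 day 7 cells (0.0921%) and none of the chosen cells, too few for the caller to have worked. The cells with the highest doublet scores made up 9.94% of chosen and 7.92% of low-ranked cells, and 9.99% of all 1742 day 7 cells.

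The chosen cells also differed from the 80 cells that the exclusion had removed from the same ranking. Among 4746 genes outside the rule, 405 (8.53%) were at least 1.5-fold higher in the chosen cells and 222 (4.68%) lower, where the exclusion genes themselves had separated the groups. Of 17 mitosis genes that passed, 16 were higher in the chosen cells (median log2 ratio 1.76), with Top2a at 213 against 43.6 CPM and Mki67 at 173 against 39.9 CPM. Of the rule genes, given as description, Aldh1a3 stood at 477 CPM in chosen and 844 CPM in left-out cells, Crabp1 at 436 and 158 CPM, Hmga2 at 155 and 59.9 CPM and Grem1 at 324 and 303 CPM.

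Across the culture, each of the 4 rule genes was highest in the day 7 library, where it was used. Over all cells with at least 1500 UMIs, Grem1 stood at 8.76 CPM on day 4 (7.15 to 10.6), 63.9 on day 7 (59.3 to 68.7) and 0 on day 14, where no UMI in 794 cells allows up to 0.586 CPM. Crabp1 stood at 30.5, 60.8 and 0.195 CPM, Hmga2 at 20.4, 42.2 and 0.586 CPM, and Aldh1a3 at 74.9, 186 and 19.9 CPM on days 4, 7 and 14. On day 14 only Aldh1a3 was thus still counted beyond a few UMIs (102, against 1 of Crabp1 and 3 of Hmga2). There was 1 library per day, and day 4 cells had not been kept in LiCl2 and DAPT, so day, medium and library cannot be told apart.

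At a matched depth of 1500 UMIs per cell, 13.8% of 2227 day 4 cells (12.4 to 15.3%), 30.3% of 1742 day 7 cells (28.2 to 32.5%) and 3.40% of 794 day 14 cells (2.25 to 4.91%) had a UMI of any rule gene. At full depth 713 of the 794 day 14 cells had none, so that a ranking of the highest 15% would take cells without any, and the rule could not be applied to day 14.

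The rule could be applied to day 4, where it chose 216 of 2227 cells. Of the day 4 cells 1574 had no UMI of the 4 genes, so the 1113 low-ranked cells were an arbitrary part of these. Over 6329 genes, 261 (4.12%) were at least 1.5-fold higher and 295 (4.66%) lower in the chosen day 4 cells. The genes named from day 7 were not chosen on these cells, although both sets of cells were ranked by the same 4 genes. Of the 15 highest on day 7, 14 passed the filter on day 4, of which 9 were higher, 0 lower and 13 above a log2 ratio of 0 (median 0.74, against 1.24 on day 7). Of the 15 lowest, 13 passed, of which 9 were lower and 0 higher (median -1.0, against -2.94).

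The genes past 1.5-fold on both days were Sfrp2, Alcam, Col5a3, Plk1, Pak1, Tes, Ccna2, Rrm2 and Rnf150 among the higher, and Cyp11a1, Smoc2, Adh1, Sfrp1, Cilp, Dner, Pcsk5, Parm1 and Tnnc1 among the lower. Sfrp2 stood at 38.7 CPM in chosen and 11.5 CPM in low-ranked cells of day 4, and Pak1 at 37.9 and 11.9 CPM. Adam12 did not pass the filter on day 4, at 10.3 and 13.1 CPM. Smoc2 stood at 55.9 and 143 CPM and Pcsk5 at 39.6 and 110 CPM, while Eln (38.7 and 48.9 CPM) and Mgp (962 and 1161 CPM) were closer on day 4 than on day 7. Of 20 mitosis genes 14 were higher on day 4 and 0 lower (median 0.71), and of 14 replication genes 9 were higher and 0 lower (median 0.70). Germ cell markers summed to 50.8 CPM in chosen and 305 CPM in low-ranked day 4 cells, and their part in these differences was not tested.

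Under a ranking by the other 3 genes on day 4, Hmga2 stood at 40.4 CPM in the chosen and 12.9 in the low-ranked cells (3.13-fold, 2.11 to 4.60) and Crabp1 at 31.4 and 19.2 CPM (1.64-fold, 1.08 to 2.44). Aldh1a3 stood at 79.1 and 73.6 CPM (1.07-fold, 0.878 to 1.31). Grem1 had 23 UMIs in the chosen and 0 in the low-ranked cells, all from 2.31% of the chosen cells. With Aldh1a3 left out, 1953 of the 2227 day 4 cells had no UMI of the other 3 genes. The highest 15% (334 cells) therefore took in cells without any, and the exclusion was made only in the chosen cells. The day 4 ratio of Aldh1a3 thus cannot show whether it followed the other 3. With every cell thinned, Aldh1a3 was not set apart on day 7, at 1.06 against 0.719 for Grem1 and 0.687 for Crabp1. At 1500 UMIs per cell only the interval for Hmga2 stayed above 1 on day 4 (2.37-fold, 1.12 to 4.76). In these 4 rankings 1928 to 2116 of the 2227 cells had no UMI of the ranking genes. The highest 15% took in such cells each time, so the thinned day 4 ratios cannot show that genes were apart.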

How the data were processed

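Drop-seq libraries of days 4, 7 and 14 were analysed as raw UMI counts. The authors aligned reads to GRCm38 and used Drop-seq tools to make the deposited counts of UMIs, and the submitters' processing notes name STAR 2.5.2a, Picard 2.6.0 and SAMtools 1.2, while the study's methods name another STAR version. The annotation release is not given in the sources used here, so genes were matched by symbol. The merged table of filtered cells was used. It has 495 further columns that match none of the samples and were not used, and 0 of the other entries differed from the tables per day. The merged table holds 24698 genes.

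The members and all lists were chosen with earlier results of these data known. UMIs were summed over the cells of a group, divided by the group's total and multiplied to CPM. Log2 ratios have 1 CPM added to each group. Genes needed 20 CPM in either group and 50 UMIs over both. A gene that reached 20 CPM in a single group had its direction fixed by this filter. Among the list members this held for Id2, Pdgfrl, Twist2, Sfrp2, Rarres2, Ptch1, Tcf21, Eln, Mfap2, Fmod, Sfrp1 and Igfbp5, as well as others. With 1 library per group, no test was made, and a gene counts as higher or lower from 1.5-fold. Intervals at 95% are exact Poisson for CPM, exact conditional binomial for ratios and Clopper-Pearson for shares. A count of 0 is given the limit of 3 counts. Named genes were the 10 rule genes, members of 38 gene lists with the highest levels, and the 15 highest and 15 lowest ratios among genes of at least 50 CPM without mitochondrial genes. Genes named outside this rule, such as single list members with lower levels and genes within chosen cells by leading gene, were chosen after their values were seen. Principal components and neighbours of variable genes came from scikit-learn 1.9.0, clusters from the Leiden method and doublet scores from Scrublet in scanpy 1.11.5. Sums and intervals used numpy 2.4.6 and scipy 1.17.1 under Python 3.11.15. Random draws used seed 1, and the scripts were tested on simulated data. Counts of UMIs in single cells limit the precision, as the intervals show. Alternatives were the UMI minimum, the share taken, the exclusion, the comparison cells, thinning, weighting, doublets, cycling cells, rule genes, the pseudocount and the filter. Single values of a few list members are not reported here.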

Additional observations from a re-analysis of the deposited data

How the results depend on the processing

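With 20 other settings, 26 of the 30 named genes kept their direction past 1.5-fold in every one, but sizes varied: after thinning 16 of the 30 log2 ratios moved by over 1.5-fold, and 28 were closer to 0. The exceptions were Plk1 (log2 ratio -0.91) and Ccna2 (-0.35) without the 25% of cells highest in cycling genes, and Ccna2 (0.33) and Rnf150 (0.51) with every cell thinned to 1500 UMIs and Pvrl3 (0.56) with a ranking without Aldh1a3. Of 36 list medians 19 changed sign in at least 1 setting, 16 of them among the 23 that lay inside 1.5-fold to begin with. The 3 among the 13 past 1.5-fold were mitosis genes without those cycling cells (-0.12), let-7 targets and oncofetal genes after thinning (-0.28) and chemokines and cytokines in a ranking without Aldh1a3 (-0.014). The number of higher genes (463) became 280 without the exclusion, 305 against all other cells, 304 against low-ranked cells outside cluster 3, 261 with 10 CPM added and 1052 with a filter of 10 UMIs and no CPM minimum, and the number of lower genes (533) became 355 and 1808 under the last 2. Thinning kept both counts within 1.5 times (342 and 474), but only 83 and 189 of these genes were counted before, and 116 of the 178 cells it chose were chosen before. The cause was not tested. The rule gene ratios turned after thinning, to 0.719 for Grem1, 0.687 for Crabp1 and 1.06 for Aldh1a3, with 1.31 for Hmga2, and with the exclusion in both groups Aldh1a3 came to 0.945. The thinned rankings took part of their chosen cells from ties, so the thinned values cannot show whether the genes shared cells. The settings without the highest doublet scores, without cluster 3, with only chosen cells of at least 4 rule gene UMIs and with all 1574 day 4 cells without a rule gene UMI as comparison, and the comparison inside clusters, were added after seeing the data. Depth limits every result on a rule gene, since 60 of 181 cells rest on 2 or 3 UMIs. No paired analysis was possible because each day has 1 library.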
